A study of Homo sapiens with 2 samples.

Results

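Genes for small nuclear, small nucleolar, small cytoplasmic and ribosomal RNAs were examined in CUT&Tag peak lists from PLC8024, a human liver cancer cell line. They were taken as every peak whose nearest gene the authors' annotation typed as snRNA, snoRNA, scRNA or rRNA. This gave 777 of 49854 peaks in the control list and 416 of 29283 in the drug list, naming 305 genes over both lists. In CUT&Tag an antibody to a chromatin protein or mark recruits a transposase, which cuts out the DNA around it for sequencing. There was 1 control library and 1 library of cells exposed for 6 hours to a drug at 10 nM, both of the same line. Neither the drug nor the antibody is named in the sources used here, and IgG and Pol II control groups that the design describes were not analysed here.

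The spliceosomal RNAs U1, U2, U4, U5 and U6, with U11, U12, U4atac and U6atac for the minor introns, form the core of the machine that removes introns. Most of them, and the nucleolar RNAs U3, U8 and U13, are made by RNA polymerase II from short genes with a promoter of their own, in which a proximal sequence element is bound by the SNAPc complex and a distal element often carries an octamer bound by OCT1 (POU2F1). RNA polymerase III makes U6, U6atac, 7SL (the RNA of the signal recognition particle), 5S ribosomal RNA and the snaR RNAs, and RNA polymerase I makes the long ribosomal precursor from the rDNA repeats. Most other human snoRNAs, which guide methylation (C/D box) or pseudouridylation (H/ACA box) of other RNAs, lie in introns of host genes and are released from the spliced intron.

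Each library was 1 sample, so no difference between the groups could be set against replicate spread and no test was made. Read depth was unknown. Scores are the authors' and place a peak only within its own list, where the median over all peaks was 80 in control and 59 in drug. Of 15 liver markers, 9 had a promoter peak in control, among them KRT8 (score 1281) and HNF4A (425), while ALB, AFP, APOA1, APOB, TTR and FGB had none in either list. None of 4 blood, 3 fibroblast and 3 endothelial markers had one in control, and in drug LYZ (59) and COL1A2 (15) did.

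Upstream stretches of 3 genes are given as examples. The RefSeq promoter table (GRCh38.p14) held none of the 305 genes, and the bases before these genes were read from the window of a neighbouring gene and turned to the small RNA gene's strand. RNU4-2 and RNVU1-2A, a U1 variant, belong to families known for promoters of their own, and SNORA57, an H/ACA snoRNA, lies close to the start of its host CSKMT. Capitals mark the octamer, searched as ATGCAAAT on both strands and therefore also as ATTTGCAT.
RNU4-2 upstream, chr12:120291939-120292238, minus strand: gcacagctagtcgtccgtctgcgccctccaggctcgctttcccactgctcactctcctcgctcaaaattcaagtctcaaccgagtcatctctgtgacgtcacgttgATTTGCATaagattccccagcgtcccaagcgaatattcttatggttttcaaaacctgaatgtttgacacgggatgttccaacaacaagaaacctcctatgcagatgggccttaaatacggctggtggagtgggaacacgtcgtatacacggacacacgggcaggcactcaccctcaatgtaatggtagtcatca
RNVU1-2A upstream, chr1:144551965-144552264, minus strand: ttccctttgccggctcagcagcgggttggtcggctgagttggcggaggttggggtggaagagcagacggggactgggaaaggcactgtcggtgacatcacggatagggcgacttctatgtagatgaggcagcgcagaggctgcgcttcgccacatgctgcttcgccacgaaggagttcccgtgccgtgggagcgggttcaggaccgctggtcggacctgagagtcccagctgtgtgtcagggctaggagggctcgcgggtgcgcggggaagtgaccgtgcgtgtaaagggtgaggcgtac
SNORA57 upstream and first bases, chr11:62665167-62665466, plus strand: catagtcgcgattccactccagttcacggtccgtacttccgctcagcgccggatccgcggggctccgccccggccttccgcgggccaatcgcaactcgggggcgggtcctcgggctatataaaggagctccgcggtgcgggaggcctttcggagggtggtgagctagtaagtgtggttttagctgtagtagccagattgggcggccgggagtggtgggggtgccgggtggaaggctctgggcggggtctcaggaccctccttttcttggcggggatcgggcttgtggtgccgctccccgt

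Positions before the start are negative. The RNU4-2 stretch runs from -335 to -36 and held 1 octamer, beginning at -229. An octamer was present in 1.77% of the 35116 promoter windows of the table. The other stretches held none. A motif like the proximal element, ACCG then any 7 bases then AA, was looked for on the gene strand from 80 to 40 bases before the start, where 0.199% of all windows had it, and TATA from 35 to 20 bases before it, where 5.45% had it. Neither was found at these places in the 3 stretches, and the RNU4-2 stretch ends before the TATA positions, while that of RNVU1-2A ends within them, at -22. A match is only a run of letters and says nothing of binding. The control peak at RNU4-2 reached from -517 to 582 and had a score of 1452, and the drug peak covered nearly the same stretch with a score of 493. At RNVU1-2A the scores were 236 and 131. These 2 stretches are promoter windows of SIRT4 and LOC105379574, and the peaks of both lists cover them whole. Peaks of RNU4-2 and RNVU1-2A therefore cannot be told apart from peaks of these neighbours. The SNORA57 peaks scored 996 and 221, and the start of SNORA57 lies 110 bases inside CSKMT, so a peak on the snoRNA and one on its host's promoter cannot be told apart.

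Most of the peaks were not at the genes they were named for. Within 1000 bp of the transcription start site (TSS), called TSS peaks here, lay 149 of the 777 control peaks and 118 of the 416 drug peaks. The other 628 and 298 were named for a small RNA gene whose start lay farther away. A few of these lie on small RNA genes that the annotation did not name, such as RNVU1-28, whose peaks of 1546 in control and 764 in drug were named for RNVU1-11. Over all distances 299 control peaks, 38.5% (exact 95% interval 35.1 to 42.0), were overlapped by a drug peak by 1 bp or more, against 40.1% of all control peaks. In the other direction 306 drug peaks, 73.6% (69.0 to 77.7), overlapped a control peak, against 70.7% of all drug peaks. Both shares lie near those of the whole lists. The intervals cover counting error over peaks only. They leave out spread between libraries, and peaks of 1 array or of near-identical gene copies are not independent.

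Names of identical gene copies are arbitrary in the annotation, so each TSS peak was placed on a RefSeq locus by position. This gave 145 loci over both lists. A locus inside a longer gene of the same strand was counted as having a host, unless that gene was a ribosomal precursor. All other loci were counted as having their own promoter. RNA5-8SN1, RNA5-8SN2, RNA5-8SN3 and RNA28SN3 lie inside ribosomal precursor genes and were thus counted with the own-promoter loci. That class does not show a promoter at these genes, and its shares and medians without them are not given here. The TSS peaks of genes with their own promoter had a median score of 560.5 in control and 403 in drug. For genes inside hosts the medians were 83 and 48, close to the medians over all peaks of the lists. They were below the medians of TSS peaks of all other genes, 282 in control and 126 in drug.

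Of 87 loci with their own promoter and a control TSS peak, 78 were overlapped by a drug peak, 89.7% (81.3 to 95.2). Of 47 loci inside hosts, 21 were, 44.7% (30.2 to 59.9). Among all control genes with a TSS peak 77.5% had an overlapped one, and of all control TSS peaks 70.1% were overlapped. The rule placed 7 loci of families known for their own promoters inside an annotated transcript (RNU11, SNORD118, RN7SL2, RNU5F-1, RNU6ATAC, RNVU1-4 and SNAR-B2), and all 7 were overlapped. It also left 9 snoRNAs without a host of placed strand. Loci were also classed by family in place of position, a choice made after seeing the data. In that classing 82 of 87 loci of families with their own promoters were overlapped and 17 of 47 other snoRNAs and mascRNA. The rDNA repeats, with the genes inside ribosomal precursors, were again counted among families with their own promoters.

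Overlap followed score in both classes, as it did for the starts of other genes. Among genes with their own promoter all 9 peaks with control scores of 400 to 799 were overlapped, and so were the 7, 21 and 14 peaks in the bands above. From 50 to 99, 1 of 5 was overlapped, and none of 4 below 50. Peaks inside hosts were mostly weak: 27 of 53 scored from 50 to 99, of which 8 were overlapped, against 21.3% of 1937 peaks of other genes in the same band. The classes thus differed in score as well as in overlap, and the part of score in the difference was not tested beyond these bands.

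**Figure D1:**
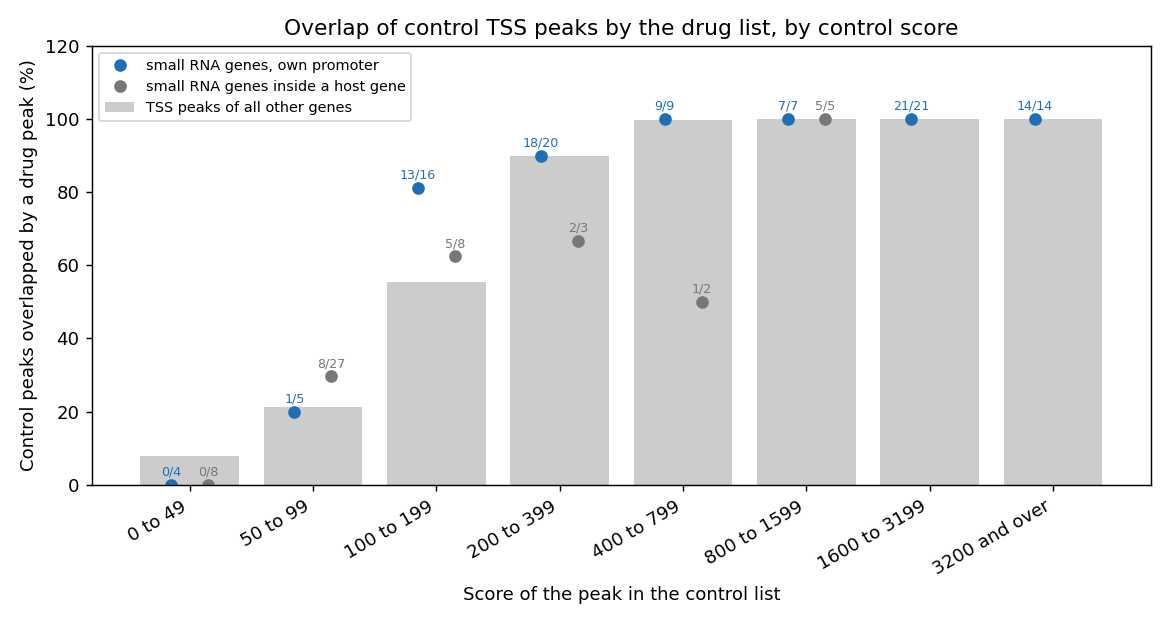
Share of control TSS peaks overlapped by a drug peak (vertical axis, percent) by control score (horizontal axis). Grey bars are all other genes and dots are small RNA genes with the numbers behind them; in the band from 100 to 199, 13 of 16 peaks of genes with their own promoter and 5 of 8 inside hosts were overlapped.

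U2 gave the strongest peaks of all small RNA genes at their starts. The U2 genes form a tandem array on chromosome 17, where 10 loci had TSS peaks in both lists. Their scores ran from 1650 to 14130 in control, median 4035, and from 1705 to 7806 in drug, median 3610. The top locus, LOC124904138 (peak chr17:43251459-43252409), led both lists among TSS peaks of small RNA genes. The array held 19 peaks per list in all, each overlapped by the other list, with 4 of the 9 further control peaks scoring over 1000. One of those, at chr17:43289921-43290872, lies in an annotated U2 repeat and scored 3855 in control and 4536 in drug. RNU2-2, the separate U2 gene on chromosome 11, had peaks of 1985 and 544 that the annotation gave to its neighbour WDR74. Whether they belong to RNU2-2 or to WDR74 was not tested.

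U1 was represented by 17 loci in control and 19 in drug. Control scores ran from 147 to 3916, median 2846, and drug scores from 39 to 2204, median 984. The 4 genes RNU1-1 to RNU1-4 stood high in both lists, with 3339, 3724, 3445 and 3916 in control and 1517, 1805, 1949 and 2204 in drug. Variant genes spread more widely: RNVU1-7 had 3081 and 1366, RNVU1-3 had 1447 and 302, and RNVU1-4 had 147 and 46. RNVU1-1 (78) and RNVU1-17 (39) had a TSS peak in drug alone, both weak. Copies of U1, U2, snaR, 5S and rDNA are nearly identical, so reads can be assigned to the wrong copy and the value of any single copy is uncertain.

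The U5 loci scored from 754 to 2846 in control and from 222 to 974 in drug, led in both by RNU5A-1. RNU4-2 stood above RNU4-1, with 1452 against 606 in control and 493 against 228 in drug. The minor spliceosome genes were also marked in both lists: RNU12 with 2269 and 783, RNU4ATAC with 2006 and 560, and RNU11 with 1196 and 329.

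Among nucleolar RNAs with their own promoters, the strongest TSS peaks of the 5 U3 loci scored from 1299 to 4186 in control and from 748 to 1300 in drug. For SNORD3C that peak (1299 and 782) lay from 696 to 948 bp downstream of the start in control. The strongest peak within 100 bp of SNORD3C scored lower, 560 in control and 303 in drug. SNORD3B-2 was the strongest in control and SNORD3A in drug. SNORD118 (U8), which acts in processing of large subunit ribosomal RNA, had 1136 and 290, and SNORD13 (U13) had 644 and 216. Each of the 44 polymerase II loci with a control TSS peak was overlapped by a drug peak, against 77.5% of all control genes with one. Their median control score was 2266, and of the TSS peaks of other genes scoring 1600 to 3199 all 552 were overlapped too, so the share is near the background at that score.

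**Figure D2:**
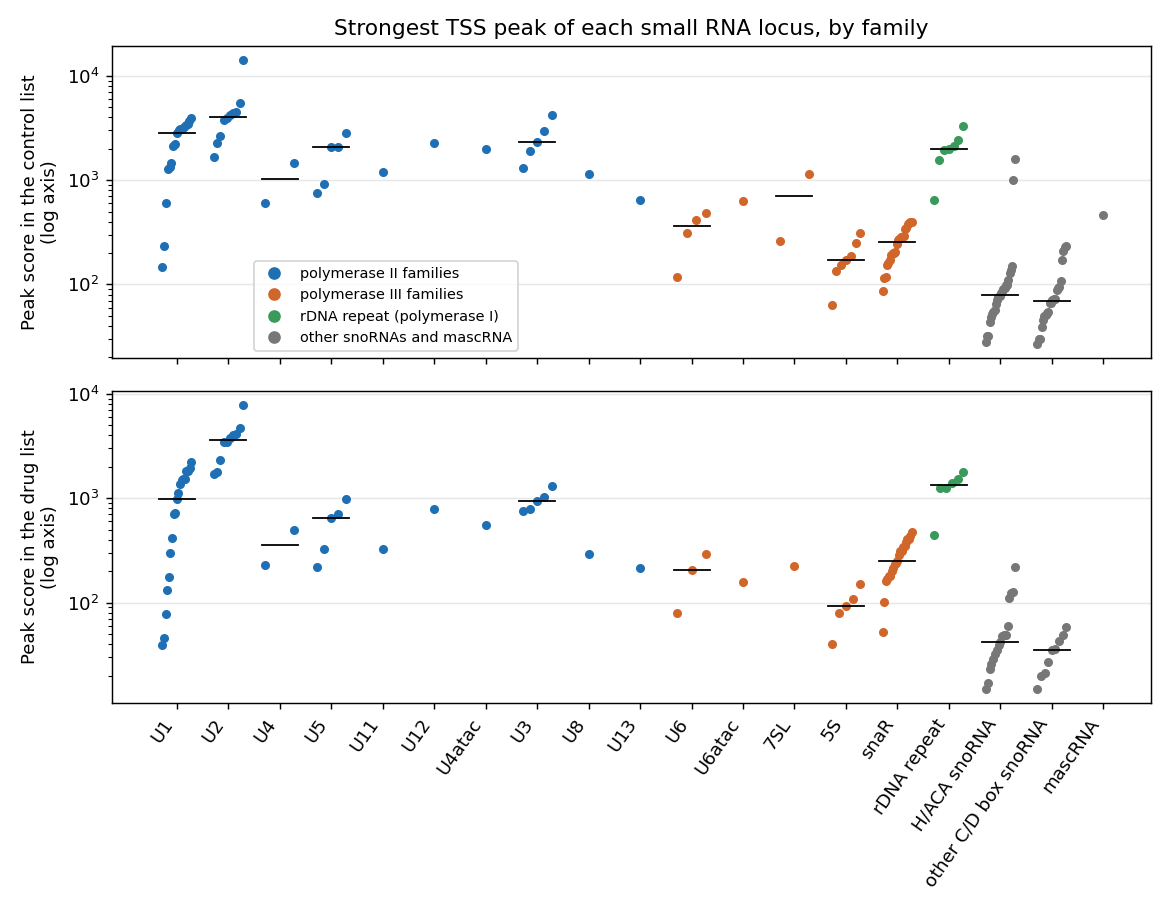
Score of the strongest TSS peak of each locus (vertical log axes, control above, drug below) by family, 1 dot per locus, with a bar at the median where a family has more than 1 locus. U2 has the highest median in both lists, 4035 and 3610, and the other snoRNAs the lowest.

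The polymerase III families were weaker. Of 36 loci with a control TSS peak 31 were overlapped, against 77.5% of all control genes with one. The median score was 257 in control and 216 in drug. Of the TSS peaks of other genes scoring 200 to 399 in control, 90% were overlapped. RNU6-7 had 485 and 294, RNU6-2 had 415 and 204, RNU6-1 had 309 and 79, and RNU6-8 had 118 in control alone. RNU6ATAC had 635 and 159. The drug peaks of RNU6-7 (-872 to -139) and RNU6ATAC (-590 to -193) ended upstream of the start. No drug peak lay within 100 bp of either gene. RN7SL2 had 1132 and 226, whereas RN7SL3, its neighbour on chromosome 14, had 262 in control and no overlapping drug peak. The 5S array on chromosome 1 had 7 loci with TSS peaks in control, from 63 to 311, and 5 in drug, from 40 to 151.

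The snaR genes, which encode short primate RNAs known to bind the protein NF90, lie in arrays on chromosome 19. TSS peaks were present at 22 loci in control, from 86 to 396 with a median of 254, and at 21 in drug, from 52 to 479 with a median of 250. All 21 drug loci were among those of control, and SNAR-C2 (119) had a control peak alone. In the control list none of these 21 stood above RNU4-1 (606), and in the drug list 13 of them stood above it (228). These are orders within each list, which differ in length, and show no change by themselves.

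To place the 2 scores of a locus side by side, the overlapped control TSS peaks of all other genes were put in bands of control score and the drug scores in each band summarised. From 200 to 399 in control, the drug peaks of other genes had a median score of 87 and an upper quartile of 116. SNAR-A9 had 382 in control and 479 in drug, SNAR-A10 had 275 and 436, and SNAR-A8 had 203 and 383. Others had the lower score in drug, such as SNAR-C1 (396 and 250) and SNAR-A7 (349 and 239). The drug score was the higher at 11 of the 21 snaR loci, whose medians were 265 in control and 250 in drug. Over the whole family 20 of 21 snaR peaks had a drug score above the upper quartile of their band, and so had all 10 U2 peaks, 6 of 7 rDNA peaks, 13 of 18 U1 peaks and 5 of 6 U3 peaks. Among all other genes 2287 of 9258 did, which the quartile fixes. The U4atac, U6atac, U8 and 7SL peaks, 1 each, lay below their band's median. U2, snaR, rDNA and U1 genes are present in near-identical copies, and the part of read placement between copies in these values was not tested.

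**Figure D3:**
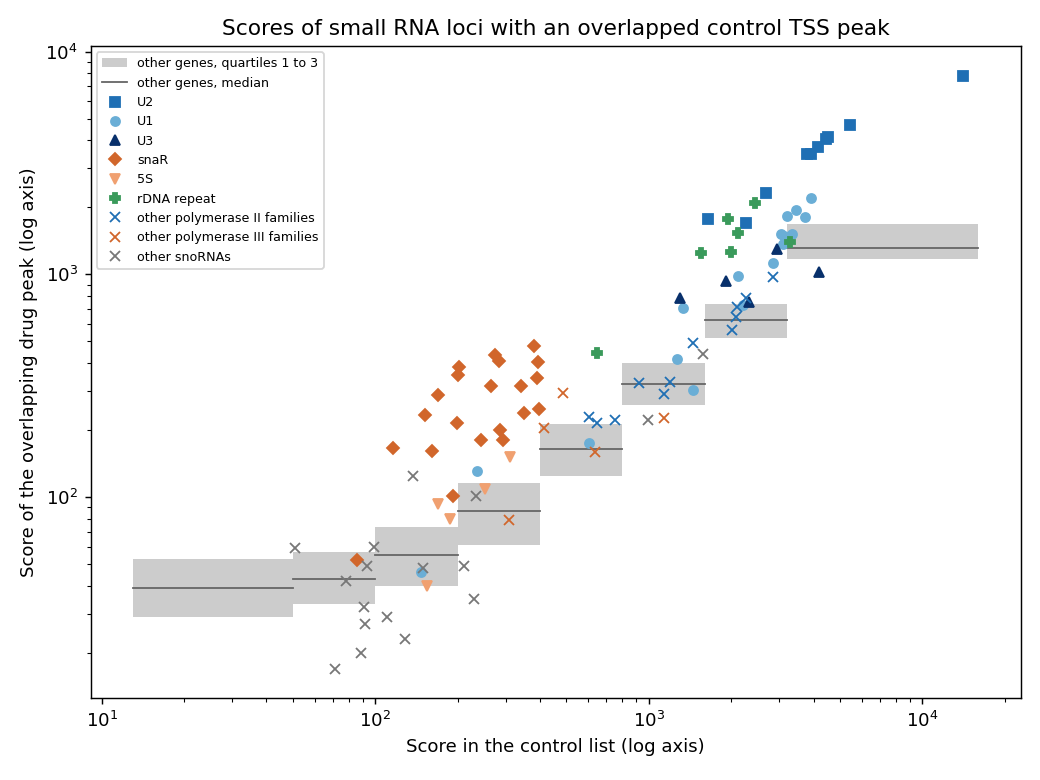
Drug score of the overlapping peak (vertical log axis) against control score (horizontal log axis), 1 mark per locus; grey boxes are the quartiles of all other genes per control band and the line in them the median. All U2 marks and most snaR and rDNA marks lie above the grey boxes, and most other snoRNAs lie within or below them.

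The ribosomal repeats on chromosome 21 had TSS peaks at 7 places in control, scoring from 649 to 3279, and at 6 in drug, from 443 to 1772. RNA45SN1, the precursor of 1 repeat, had a peak 2647 bp wide with a score of 2449, overlapped by a drug peak of 2083. Peaks were also found at the short RNA5-8S genes, with 1942 and 1772 at RNA5-8SN1 and 1550 and 1245 at RNA5-8SN3. The 18S genes within the same repeats had no peak in either list within 100 bp.

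Peak position differed between the polymerase classes. At polymerase II loci the peak centre lay downstream of the start in 39 of 44 control loci and 41 of 46 drug loci, with medians of 112.5 and 125.5 bp. At polymerase III loci it lay upstream in 36 of 36 and 31 of 31, with medians of -81.5 and -67 bp. The TSS peaks of all other genes were centred downstream in 52.0% of 13211 cases in control and 43.1% of 10075 in drug. Polymerase II peaks were also wider, with a median of 1028 bp in control against 346 bp. The snaR peaks were 328.5 bp wide in the median and covered the start at 21 of 22 control loci, whereas the 5S peaks covered it at 1 of 7. Loci of 1 array are not independent of each other.

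**Figure D4:**
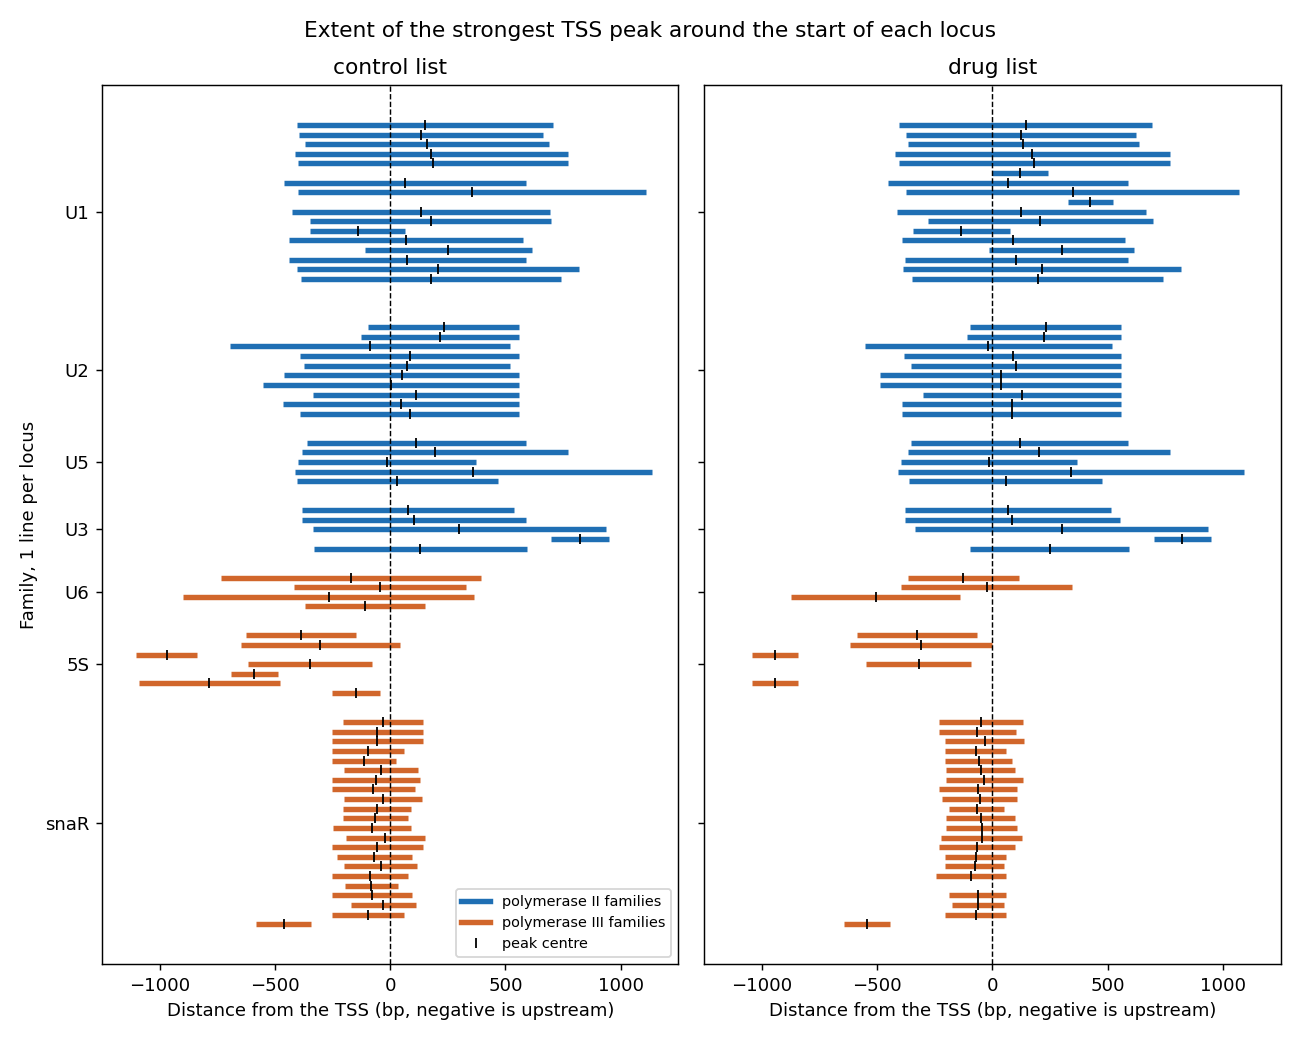
Extent of the strongest TSS peak of each locus relative to its start (horizontal axis, bp, negative is upstream) in control (left) and drug (right), 1 line per locus with a tick at the peak centre. U1, U2, U5 and most U3 peaks are about 1 kb wide and reach downstream, snaR peaks are short and straddle the start, and 5S peaks lie upstream. The 2 U1 copies on chromosome 14 that the RefSeq table does not place are left out.

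Peaks at snoRNAs of other families were mostly weak. The 24 H/ACA loci with a control TSS peak had a median score of 80 and 11 were overlapped, and the 22 other C/D box loci had a median of 69 and 6 were overlapped. Over all control genes with a TSS peak the share was 77.5%. For TSS peaks of other genes scoring 50 to 99, the band of both medians, it was 21.3%, so these counts show no loss particular to snoRNAs. Of the 46 snoRNA loci inside hosts only SNORA57 lay within 1000 bp of a host's 5' end. SNORA71E in SNHG11 had 149 and 48, SNORA40 in TAF1D had 110 and 29, and SNORD66 in EIF4G1 had 92 and 27. SNORD88B (172) and SNORD32A in RPL13A (107) had no overlapping drug peak. MASCRNA, the tRNA-like RNA cut from the end of MALAT1, had a TSS peak of 463 in control and none in drug, the highest control score without overlap. That peak lay from 411 to 726 bp downstream of the start, past the end of the gene. The MASCRNA locus also lies inside TALAM1, on the other strand. SNORA50C, for which no host of the same strand was placed, had a control peak of 1577 that was 1741 bp wide. The drug TSS peak named for SNORA50C scored 111. Another drug peak overlapping the control peak, not named for SNORA50C, scored 441. Drug TSS peaks at snoRNAs without a control partner were weak, such as SNORD61 (43) and SNORA118 (39).

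The promoters of the host genes were looked at in the same way. Of 47 host genes of these loci 33 had a control promoter peak and 30 of those were overlapped, where 77.7% of all control genes with a promoter peak were. TAF1D had 2265 and 630, HSPD1 3146 and 1160, and DKC1, the pseudouridine synthase of H/ACA particles, 1461 and 481. The hosts with the most small RNA genes named at peaks included NOP58 with 4 and WDR43 with 3. The 7 control peaks named for the NOP58 snoRNAs scored from 30 to 192 and 1 was overlapped. The 6 of the WDR43 snoRNAs scored from 34 to 115 and 2 were overlapped. Among all control peaks of any score 40.1% were overlapped. The snoRNA peaks of HSPA9 scored from 37 to 135, below its promoter peak of 1389. Further hosts were TAF1D, CCNB1IP1, TNPO2, RPL13A, SNHG17 and SNHG11, with 2 small RNA genes each.

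Small RNA genes were also looked up by position, whichever gene their peaks were named for, a step added after the data had been seen. Peaks at RPPH1, TERC, VTRNA1-1, VTRNA1-2 and VTRNA1-3 were named for these genes themselves, which lay outside the gene types taken here. A peak in control lay within 100 bp of 32 of 34 U1, U2, U4, U5, U11, U12 and U4atac loci, and in drug of 33. RN7SK, the RNA that holds the elongation factor P-TEFb inactive, had 1348 and 388. RMRP and RPPH1, the RNAs of RNase MRP and RNase P, had 1679 and 610, and 1165 and 710. RNU7-1, needed for histone mRNA ends, had 1409 and 380, and RN7SL1 had 1297 and 391. The vault RNA genes VTRNA1-1, VTRNA1-2 and VTRNA1-3 had 911, 893 and 878 in control and 339, 206 and 357 in drug. TERC, the telomerase RNA, had 237 and 57. Of 534 named snoRNAs of the other families, 42 had a peak in control and 17 in drug. A share over all genes looked up in this way is not given here, so the counts of 34 and 534 loci have no background. RMRP and RNU7-1 start close to the start of another gene, CCDC107 and C12orf57, so their peaks cannot be told apart from those of the neighbour. The peaks at RN7SK and RN7SL1 were named for GSTA4 and RPS29 in both lists. Whether they belong to the small RNA gene or to the gene named was not tested.

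The proteins that act on these RNAs were compared by promoter peaks, with the same 77.7% over all control genes beside them. Of the snRNA promoter factors and little elongation complex genes, 13 of 16 had a control promoter peak and all 13 were overlapped, led by ELL (2542 in control, 858 in drug) and ZNF143 (2354 and 689). The Integrator complex, which cuts the ends of snRNAs, had 8 of 15, all overlapped, led by INTS6 (2850 and 1069) and INTS4 (1817 and 554). All 5 RNA polymerase III subunit genes with a peak were overlapped, led by POLR3B (1074 and 260). Of 14 snoRNP genes 13 were overlapped, led by NOLC1 (2689 and 988), and NAF1 (76) was not. The Sm, LSm and assembly genes had 20 of 21 overlapped, with SNRPD2 (1856 and 618) and SNRNP70 (1842 and 685) on top and LSM7 (57) without overlap. Polymerase I and rDNA factors had 5 of 6, where TTF1 (74) was the exception, and 7SK and La-related proteins 4 of 5, where CCNT2 (50) was. All 32 listed snoRNA host genes with a peak were overlapped, led by ZFAS1 (2539 and 1002) and HSPA8 (2369 and 743). The median control score of these lists ran from 399.5 to 1329 against 361 over all genes.

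Peaks beyond 1000 bp included some of the highest scores. The peak named for SNORD109B, at chr15:25291964-25292737 and 14007 bp from its start, lies in an L1PA4 repeat and scored 17356 in control and 7008 in drug. A peak named for RNU5F-1 lies 6919 bp away in an AluJb repeat, with 8899 and 3506. Control genes with no overlapped peak at any distance were led, after MASCRNA, by SNORA5A (279), RN7SL3 (262), SNORD65C (243) and SNORA25 (236). These genes were taken by annotated name. In drug the highest such score was 79, at a peak named for RNVU1-4. By position the RNVU1-4 locus did have an overlapped drug peak (46), which was named for RNVU1-20. Single drug peaks of genes with other, overlapped peaks could score higher without a partner, such as 108 for SNORA4. Of the 628 control peaks of small RNA genes beyond 1000 bp 195 were overlapped, 31.1% (27.5 to 34.8), against 26.7% of all control peaks beyond 1000 bp. Intron peaks among them were overlapped in 57 of 316 cases, 18.0% (14.0 to 22.7), against 24.7% of all 20470 control intron peaks. Intergenic ones were overlapped in 92 of 170, 54.1% (46.3 to 61.8), against 37.5% of all 9249. In the drug list 9868 of 10193 TSS peaks of all genes, 96.8%, overlapped a control peak, and 106 of the 118 at small RNA genes did, 89.8% (82.9 to 94.6), the 12 others scoring 78 or less.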

How the data were processed

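Per the file headers, peaks were annotated with HOMER (annotatePeaks.pl) against hg38 from a MACS2 narrowPeak file of each library, whose name points to duplicate removal. The aligner, the tool versions and whether peak calling used an IgG control are not stated in these sources. The value the authors deposited per peak is a score, a whole number of at least 13 in both lists, which by MACS2's convention is 10 times a −log10 q-value, and a distance to the TSS. A blank line of the control list was not analysed here. Depth was unknown.

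Samples were grouped by their treatment label. Overlap meant at least 1 bp, in 1-based coordinates, and the code was tested on simulated peaks. TSS peaks were placed on RefSeq (GRCh38.p14) loci whose start lay within 3 bp of the stated distance, and 304 of 305 gene identifiers matched. Host genes whose strand could not be placed did not count as hosts, and neither did ribosomal precursor genes. Intervals are exact Clopper-Pearson 95% intervals (scipy 1.17.1). With 1 library per group no p-value was computed.

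Members, gene lists and rules were chosen with earlier results of these data known. Named were genes with their own promoter and a TSS peak, the 10 strongest per list with and without overlap, the 10 hosts with most members, and up to 2 genes per list and call, of which the text gives the main ones. Some genes that these rules take are left out of the text. Alternatives changed the score minimum, list length, overlap rule, chromosomes, repeats, TSS distance, naming and host rule.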

Additional observations from a re-analysis of the deposited data

How the results depend on the processing

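The share of loci with their own promoter that were overlapped (89.7%) stayed within its counting interval under every alternative run, from 89.7% to 94.3%, except when genes were compared by the annotated name, which gave 70.6%; names of identical copies are arbitrary, as that comparison is built. For loci inside hosts (44.7%) the share was 25.0% with scores of at least 50 in both lists and 62.5% with the control list cut to the length of the drug list, and the other alternatives gave 36.2% to 48.9%. The share of control peaks overlapped (38.5%) was 58.4% at equal list length and 42.6% with up to 500 bp between peaks. The share of drug peaks overlapped (73.6%) was 92.8% with scores of at least 50 and 68.3% at equal list length. The classing by family, which gave 94.3% and 36.2%, was chosen after seeing the data. In each alternative the share was higher for genes with their own promoter than for genes inside hosts. No paired analysis was possible because each group holds 1 library. Depth was unknown, so a control peak without a drug partner was not detected in that list and is not shown to be absent.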
